A study of Drosophila melanogaster with 12 samples.

Results

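The comparison was between heads of flies labelled cabut RNAi and heads of control flies, all fed sucrose, over 6 and 3 RNA-seq libraries. It took in the libraries at 25, 50 and 100 percent sucrose and left out those at 0 percent, which made 9 of the 12 libraries of the series. Flies of Drosophila melanogaster in the Canton-S background were sampled at 18 h, and the percentages are those of the labels. The genotype of the cabut RNAi-labelled libraries is given as Tim-gal4, UAS-cbt RNAi, with 2 libraries per concentration. That of the controls is given as +/cbtE1-UAS-cbt RNAi, with 1 library per concentration, so the controls carried the hairpin transgene without a named driver. The labels name cbtE1 for the controls and do not say whether the other flies carried it. The design asked how reduced cabut alters the head transcriptome of sugar-fed flies.

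Cabut (cbt) encodes a zinc-finger transcription factor of the TIEG family. In the fly, sugar acts through the Mondo-Mlx transcription factor pair to raise cbt RNA, and Cabut protein is known for repressing the phosphoenolpyruvate carboxykinase genes and for linking sugar sensing with metabolic genes and the circadian clock. The Gal4 driver Tim-gal4 follows the clock gene timeless, which is active in clock neurons, photoreceptors and many glia, so the hairpin was driven in some cells of the head and the RNA was measured in all of them. In such bulk samples, fewer cells of a type and less RNA per cell cannot be told apart.

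The 9 libraries held between 511487 reads, in the control at 100 percent sucrose, and 1859280 reads, in a cabut RNAi-labelled library at 25 percent, with 1 transcript row kept per gene. Values are given as normalized reads, which are reads multiplied by 1 factor per library, and groups as mean ± SD. Differences are cabut RNAi-labelled libraries minus controls on the log2(value + 1) scale, with the standard error (SE) of the fit, and this scale understates the change of genes with few reads. They were fitted with limma for 6552 genes with a mean of at least 10, with concentration as a term, and a gene was called at a Benjamini-Hochberg adjusted p under 0.05. Markers of photoreceptors were present in every library and made up 3.93 to 5.09 percent of reads. The labels name no separate cultures or animals behind the libraries, and a p-value therefore reflects the spread among these 9 libraries alone, part of which may be technical.

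The targeted RNA, cbt itself (CG4427, transcript CG4427-RB, chromosome arm 2L, 476437 to 479046 in build dm3), was not lower in the cabut RNAi-labelled libraries. These libraries held 162.2 and 125.8 normalized reads of cbt at 25 percent sucrose, 166.3 and 138.2 at 50 percent, and 185.7 and 201.6 at 100 percent. The controls held 139.3 at 25 percent, 127.6 at 50 percent and 98.5 at 100 percent. The control lay between both cabut RNAi-labelled libraries at 25 percent sucrose and below them at 50 and 100 percent, and over the 3 concentrations the groups overlapped. The means were 163 ± 28.4 (SD, n = 6) and 122 ± 21.0 (SD, n = 3). The fitted difference was 0.42 ± 0.15 (SE; limma adjusted p 0.0898). It passed the threshold as higher without the second cabut RNAi-labelled library at 25 percent (adjusted p 0.028) or without the control at 25 percent (adjusted p 0.0344) and was 0.14 without the control at 100 percent (adjusted p 0.624). The readout of the target in whole heads thus did not show the reduction that the label names. It cannot show the level in the cells with the driver alone. Whether RNA of the hairpin transgene adds to this row, or cbtE1 in the controls alters it, was not tested.

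The gene white (w, chromosome arm X), an ABC transporter that carries eye pigment precursors and whose shortened copy commonly marks fly transgenes, separated the groups. Libraries labelled cabut RNAi held between 24.4 and 42.4 normalized reads of w, with a mean of 32.6 ± 6.80 (SD, n = 6), and the controls held 15.9, 4.96 and 15.7 at 25, 50 and 100 percent. No value of one group lay within the other, and the difference was 1.47 ± 0.30 (SE; limma adjusted p 0.00311). The labels do not say which transgenes carry such a copy.

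**Figure D1:**
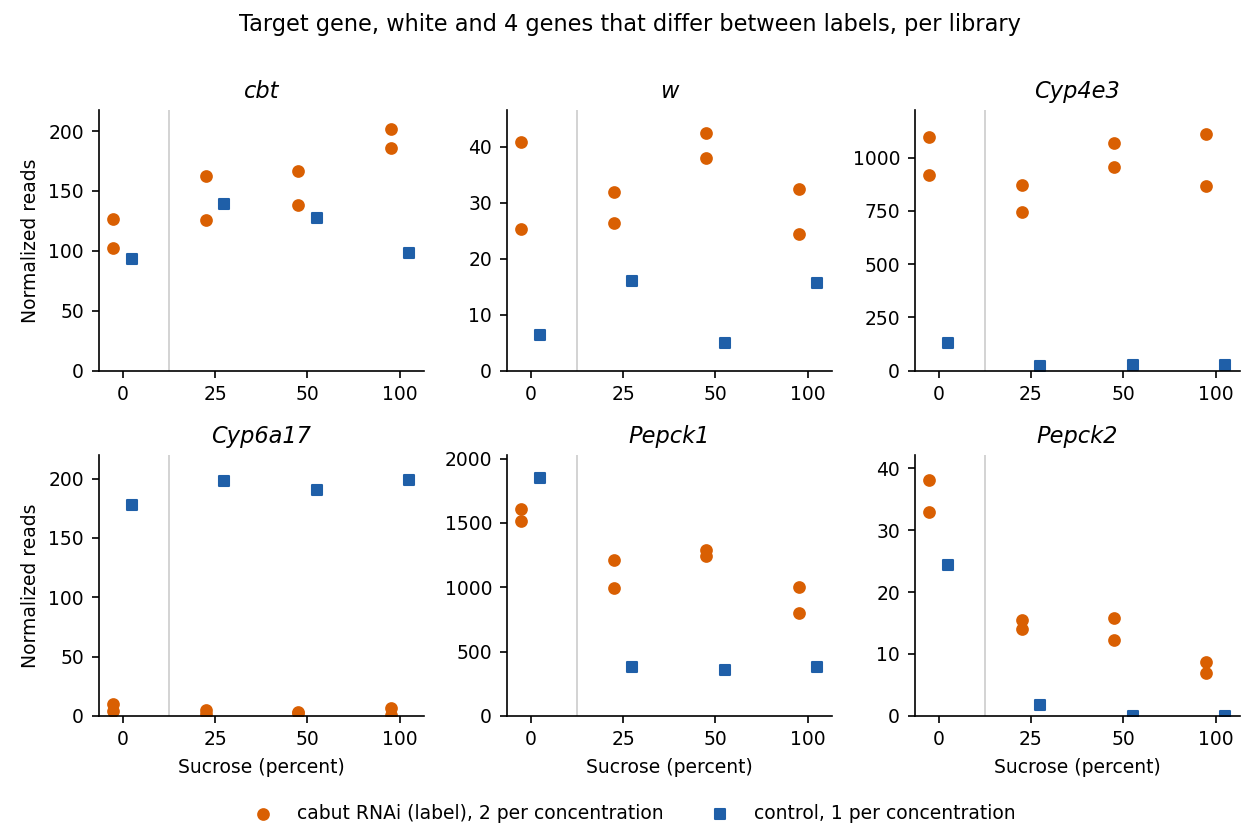
Normalized reads per library (y axis) against sucrose in percent (x axis) for cbt, w, Cyp4e3, Cyp6a17, Pepck1 and Pepck2; circles are cabut RNAi-labelled libraries, squares are controls, and the grey line separates the 0 percent libraries, which were not part of the comparison. The symbols of cbt mix at 25 percent sucrose, and those of the other 5 genes do not overlap on sucrose.

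Between the labels, 354 genes were higher and 466 lower, which is 5.4 and 7.11 percent of the genes tested. The median difference over all genes was -0.002, and 84 genes were higher and 99 lower by more than 1 on the log2 scale. For 432 genes the lowest value in cabut RNAi-labelled libraries was above the highest control, and for 541 the reverse held, which is 6.59 and 8.26 percent. Of the 820 calls, 817 had the same sign at 25, 50 and 100 percent sucrose, which calling on 1 common difference favours. Leaving out the shallowest library, the control at 100 percent, gave 210 higher and 278 lower genes (3.21 and 4.24 percent), with 452 of the 820 calls still made. In all of the 9 fits that each left out 1 library, 343 of the 820 were called. Quantile normalization called 5.57 percent as higher and 5.69 percent as lower.

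Among the 12 largest increases were 2 cytochrome P450 genes, which encode oxidases of lipids and foreign compounds. Cyp4e3 (2L) held 745.8 and 870.9 normalized reads at 25 percent sucrose, 1069 and 956.3 at 50 percent and 1109 and 864.3 at 100 percent in the cabut RNAi-labelled libraries. The controls held 20.1, 27.3 and 24.6. Every cabut RNAi-labelled library lay far above every control, by 5.23 ± 0.11 (SE; limma adjusted p 1.86e-15). Cyp4p1 (2R) was at 159 ± 8.69 (SD, n = 6) against 16.7 ± 1.09 (SD, n = 3), a difference of 3.18 ± 0.12 (SE; limma adjusted p 3.9e-11). CG3348 (3R) held 947 ± 299 against 22.8 ± 16, and was higher by 5.62 ± 0.31 (SE; limma adjusted p 2.81e-09).

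Akr1B, an aldose reductase, which turns glucose into sorbitol, held between 534.9 and 675.7 normalized reads in the cabut RNAi-labelled libraries and 97.3, 97.9 and 116.4 in the controls. The groups lay apart by 2.48 ± 0.10 (SE; limma adjusted p 4.48e-11). CG32444, a predicted aldose epimerase, was higher by 2.81 (742 ± 99.2 against 106 ± 26.1). CG9377 was higher by 2.48 (170 ± 54.0 against 28.4 ± 2.32). CG12896, a peroxiredoxin gene, was higher by 2.51 (78.4 ± 19.9 against 13.4 ± 6.35). Its neighbour Prx6b, a peroxiredoxin as well, was higher by 2.0 (116 ± 29.9 against 27.9 ± 7.18). These 2 genes lie next to each other on 2R, at 6314385 to 6315418 and 6311941 to 6312976 in dm3, and belong to a family of close copies, so reads may have been split between them.

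A group of neighbouring genes on 2L varied widely among the cabut RNAi-labelled libraries. Acp1, an adult cuticle protein, held 8.49 and 1273 normalized reads in the 2 libraries at 25 percent, 145.8 and 782.6 at 50 percent and 421.4 and 286.0 at 100 percent. The controls held 5.87, 12.4 and 8.95. The first library at 25 percent was at the level of the controls and the other 5 were above them. In CG31904, CG7203 and CG7214 too, the second library was above the first at 25 and at 50 percent. CG31904 ranged from 7.99 to 1314 against 4.20 to 15.7 in the controls, and CG7203 from 181.2 to 3609 against 157.8 to 185.7. CG7214 had 1336 reads over the 6 cabut RNAi-labelled libraries and 1 read over the 3 controls, a ratio of 428 per unit of depth (95 percent counting interval 76.7 to 1.69e+04, counting error only). The 4 genes lie between 7734411 and 7753156 of 2L in dm3. The calls of Acp1, CG31904 and CG7203 ended without the control at 100 percent, with limma adjusted p of 0.0749, 0.0536 and 0.0856. CG11458 (3L), which held 238.1 to 1970 against 73.9 to 109.0, kept its call in every fit without 1 library.

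The largest decrease was that of Cyp6a17 (2R, 10761477 to 10763064 in dm3), a cytochrome P450 known for its part in the temperature preference of the fly. It held 4.99 and 1.88 normalized reads at 25 percent sucrose, 2.05 and 2.96 at 50 percent and 0.876 and 6.98 at 100 percent in cabut RNAi-labelled libraries. The controls held 198.0, 190.8 and 199.2. Every cabut RNAi-labelled library was near 0 and every control near the same level, with a difference of -5.69 ± 0.38 (SE; limma adjusted p 4.43e-08). The neighbouring gene Cyp6a23 starts at 10763338 and is a close copy, and reads of the pair may have been divided unevenly.

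Cpr72Ec, a protein of the corneal lens, held 73.5 ± 28.3 normalized reads (SD, n = 6) against 840 ± 155 (SD, n = 3), a difference of -3.58 (limma adjusted p 1.84e-08). The non-coding RNA lncRNA:CR32368 held 21.6 ± 14.1 against 182 ± 47.7, a difference of -3.20 ± 0.36 (SE). CG16743 held 39.2 ± 7.67 against 135 ± 15.2, a difference of -1.78. CG16926 held 33.4 ± 7.60 against 121 ± 75.4, a difference of -1.65. For these 4 genes the groups did not overlap and the call was kept in every fit without 1 library. Cyp4g1, the oenocyte P450 that makes cuticular hydrocarbons, held 1.88 to 15.4 in the cabut RNAi-labelled libraries and 16.8, 17.3 and 1101 in the controls. Its difference of -3.57 was not called without the control at 100 percent, which held the 1101 reads (limma adjusted p 0.0574).

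**Figure D2:**
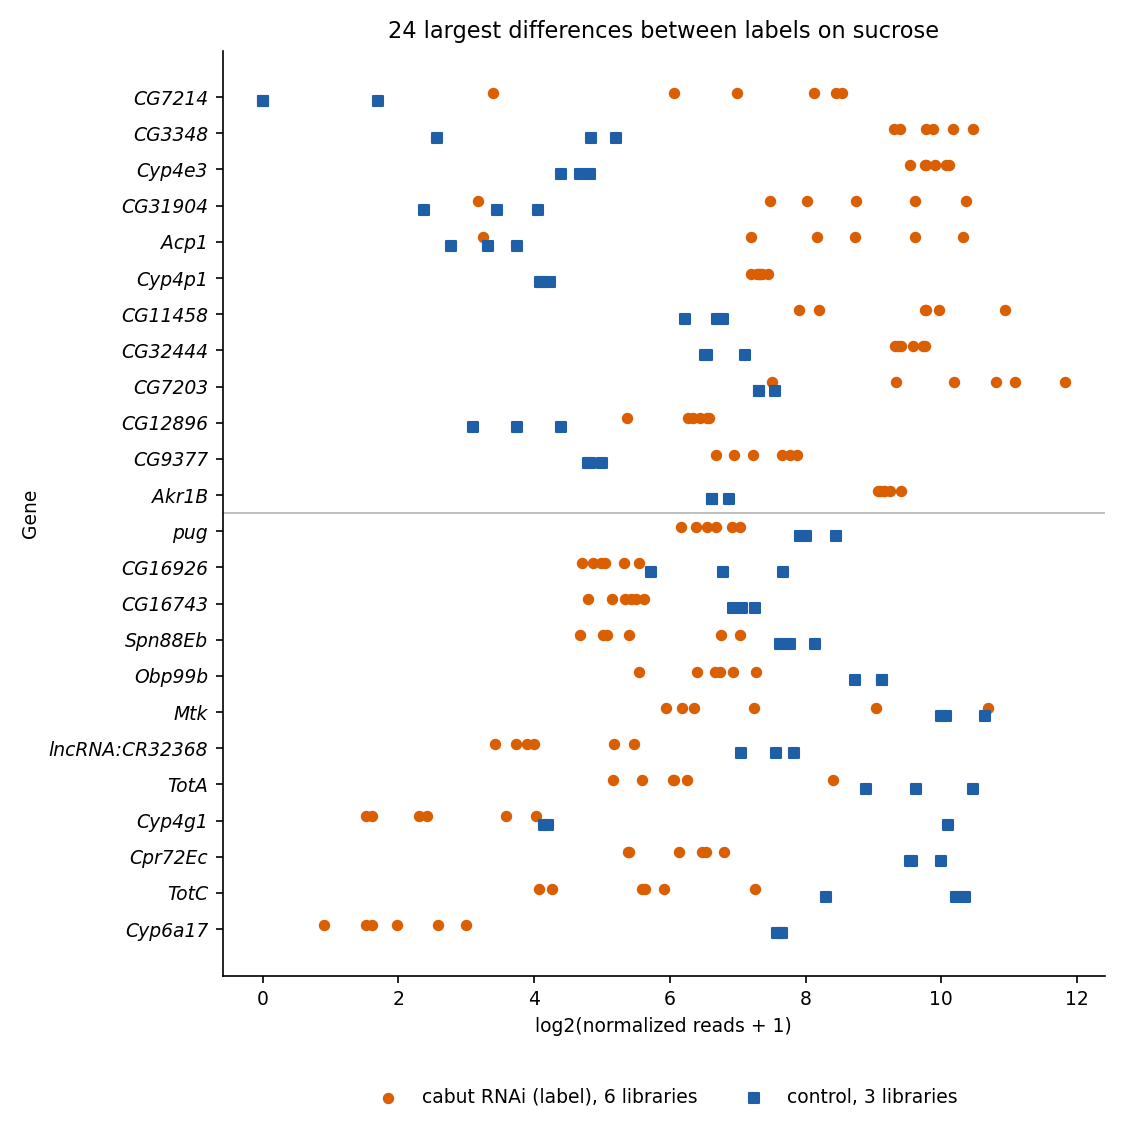
log2(normalized reads + 1) on the x axis for the 12 largest differences in each direction (y axis), with 1 circle per cabut RNAi-labelled library and 1 square per control. The circles of CG31904, Acp1, CG7203 and Mtk reach into the squares, the 3 squares of Cyp4g1 include 1 far from the other 2, and the circles and squares of the other genes do not overlap.

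Counts in the gene lists below stand beside 5.4 percent of all tested genes higher and 7.11 percent lower. Groups did not overlap for 6.59 percent of all tested genes as higher and 8.26 percent as lower. A count near these shares says nothing particular about a list. The genes of sugar metabolism were asked about by pathway, beginning with the sugar sensing regulators Mondo, bigmax, sug, cbt and daw. None of the 5 was called in either direction, and their median difference was 0.33. The nearest, sug (sugarbabe, a sugar-induced transcription factor of the GLI-similar family), held 125 ± 35.5 normalized reads against 92.5 ± 9.90, with a difference of 0.38 ± 0.14 (SE; limma adjusted p 0.0845). It passed without the control at 25 percent (adjusted p 0.0261), when cbt passed too.

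Of 4 gluconeogenesis genes tested, 3 were higher, none was lower and the median difference was 1.16. Pepck1, the cytosolic phosphoenolpyruvate carboxykinase that commits carbon to glucose synthesis, held 990.4 and 1213 normalized reads at 25 percent sucrose, 1243 and 1290 at 50 percent and 1004 and 796.7 at 100 percent. The controls held 382.7, 356.8 and 380.4. All 6 cabut RNAi-labelled libraries were above all 3 controls, by 1.52 ± 0.11 (SE; limma adjusted p 1.29e-07). Its neighbour Pepck2, the second enzyme of this kind, had 94 reads against 2 over the groups, a ratio of 15.1 (95 percent counting interval 4.06 to 126). It was listed at 0 in the controls at 50 and 100 percent. fbp, fructose-1,6-bisphosphatase, held 312 ± 28.8 against 179 ± 21.9, a difference of 0.80 ± 0.11 (SE; limma adjusted p 0.000126).

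Of 12 glycolysis genes, 3 were higher and 1 was lower, with a median of 0.15. Ald1 (aldolase) was higher by 0.54, Gapdh1 (glyceraldehyde-3-phosphate dehydrogenase) by 0.56 and Tpi (triose phosphate isomerase) by 0.47, and these 3 calls were kept in every fit without 1 library. Hex-C, a hexokinase that is most abundant in the fat body, was at 97.7 ± 15.5 against 147 ± 28.1 and differed by -0.58 (limma adjusted p 0.00511), with 1 control inside the range of the other group, and the call ended without the control at 50 percent (0.0714). In the pentose phosphate pathway, which makes NADPH, 3 of 7 genes were higher and none lower. The transketolase gene CG8036 held 536 ± 37.2 against 307 ± 51.4, a difference of 0.81 ± 0.10 (SE; limma adjusted p 2.81e-05). Taldo (transaldolase) was higher by 0.34 and Zw (glucose-6-phosphate dehydrogenase) by 0.54. Without the control at 50 percent, neither was called (adjusted p 0.0707 and 0.23), and Zw was also lost without the control at 100 percent (0.121) and without the first cabut RNAi-labelled library at 50 percent (0.0552).

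Storage sugar genes did not share a direction. Glyp, glycogen phosphorylase, which releases glucose units from glycogen, held 308 ± 23.8 against 178 ± 31.0 and was higher by 0.80 ± 0.11 (SE; limma adjusted p 0.00014). Of the 9 genes of glycogen and trehalose tested, 2 were higher and 1 lower, and only Glyp among these calls was kept in every fit without 1 library. The other higher gene, the trehalose transporter Tret1-1 (0.31), was kept in 2 of the 9 fits and the lower one, Pgm1, a phosphoglucomutase (-0.41), in 4, and neither was called without the control at 100 percent (limma adjusted p 0.112 and 0.234). In the list of polyol enzymes and aldose reductases, 2 of 7 were higher and 2 lower. No gene of the list was lower when any 1 of the 3 controls was left out. Akr1B, described above, and Sodh2, a sorbitol dehydrogenase, were higher in every fit without 1 library. Sodh2 held 87.6 ± 20.3 against 35.4 ± 8.37, a difference of 1.28 ± 0.19 (SE; limma adjusted p 0.000194). Of 7 tested genes for the digestion of carbohydrates, 1 was lower (2 without the control at 50 percent), the maltase gene Mal-B2, with 234 ± 38.6 against 424 ± 33.6 and a difference of -0.87 ± 0.12 (SE).

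**Figure D3:**
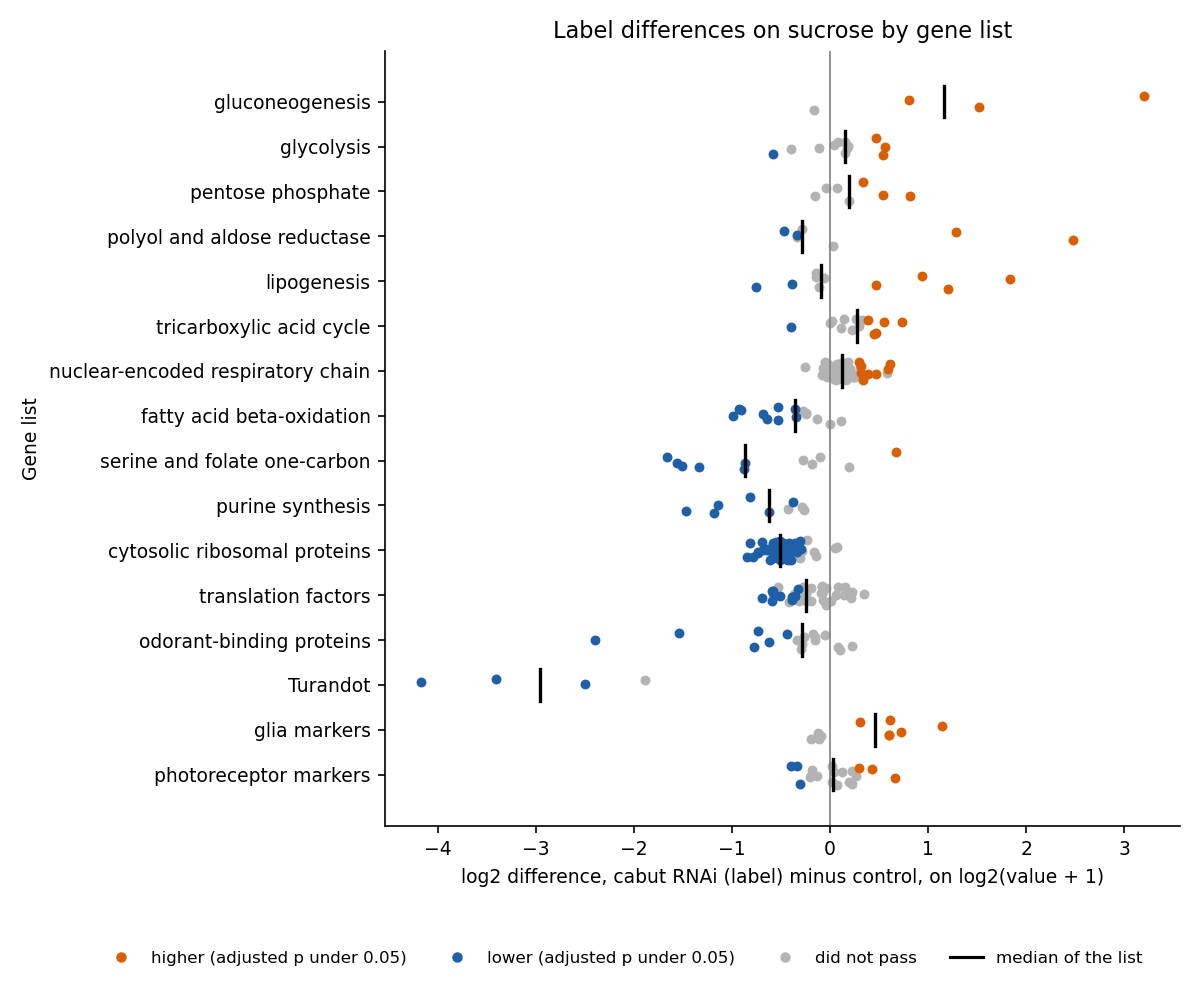
log2 difference of cabut RNAi-labelled libraries minus controls (x axis) for each tested gene of 16 lists (y axis), coloured by the limma call, with a bar at the list's median. Gluconeogenesis points lie mostly to the right of 0, and those of beta-oxidation, purine synthesis, cytosolic ribosomal proteins and Turandot genes lie mostly to the left.

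Genes of fat synthesis moved in both directions, with 4 of 10 higher, 2 lower and a median of -0.09, which was 0.12 after quantile normalization. The higher count was 3 in every fit without 1 library and with DESeq2, 4 with edgeR and 5 after quantile normalization. Gpdh1, the glycerol-3-phosphate dehydrogenase that makes the backbone of triglycerides, held 362.9 and 382.0 normalized reads at 25 percent sucrose, 465.1 and 412.5 at 50 percent and 570.3 and 439.5 at 100 percent. The controls held 142.7, 90.4 and 136.5. The groups lay apart by 1.84 ± 0.14 (SE; limma adjusted p 1.29e-07). AcCoAS, acetyl-CoA synthetase, held 561 ± 83.5 against 240 ± 13.6, a difference of 1.21 ± 0.10 (SE; limma adjusted p 8.3e-07). Men, the NADP-dependent malic enzyme, held 309 ± 87.9 against 156 ± 20.2, a difference of 0.94 ± 0.12 (SE; limma adjusted p 8.18e-05). ACC (acetyl-CoA carboxylase), the first committed enzyme of fatty acid synthesis, differed by -0.39, and its call ended in 4 of the 9 fits without 1 library, with limma adjusted p of 0.199 without the control at 50 percent, 0.167 without that at 100 percent, and 0.0753 and 0.0763 without the first cabut RNAi-labelled libraries at 50 and 100 percent. In these 4 fits no gene of the list was lower.

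Lipid droplet and lipase genes had 2 of 7 higher and none lower. Lsd-1, a perilipin that coats lipid droplets and controls access of lipases, held 274.6 to 500.9 normalized reads against 228.3, 166.0 and 192.5 in the controls, a difference of 0.96 ± 0.14 (SE; limma adjusted p 0.00025). The other was the lipase gene CG5966, higher by 0.59 with overlapping groups and called in 4 of the 9 fits, the highest adjusted p being 0.22 without the control at 25 percent and 0.125 without that at 50 percent. Mitochondrial and peroxisomal beta-oxidation genes, which break fatty acids down to acetyl-CoA, went the other way as a list: none of 15 was higher and 9 were lower, with a median of -0.36 against -0.002 for all genes tested. CPT2, which hands long-chain acyl groups to the mitochondrial matrix, held 25.5 ± 3.34 against 51.5 ± 2.57 and differed by -0.99 ± 0.17 (SE; limma adjusted p 0.000692). CG3902, an acyl-CoA dehydrogenase, held 135 ± 14.3 against 262 ± 61.4 and differed by -0.93. wal, a subunit of the electron transfer flavoprotein, differed by -0.69, and Acadvl, the dehydrogenase of very long chains, by -0.53. These 4 calls were kept in every fit without 1 library. Over the list, 4 genes were lower and none higher without the control at 100 percent, and 5 were lower and none higher without that at 50 percent.

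The enzymes of serine and folate one-carbon metabolism, which supply single-carbon units for purines and methylation, had 6 of 11 lower and 1 higher, with a median of -0.87. By concentration the median was -0.22 at 25 percent sucrose, -0.99 at 50 percent and -0.89 at 100 percent. Without the control at 100 percent or that at 50 percent, 4 were lower, with medians of -0.60 and -0.62. Shmt, serine hydroxymethyltransferase, held 68.9 and 72.3 normalized reads at 25 percent sucrose, 76.0 and 123.4 at 50 percent and 75.3 and 67.0 at 100 percent, against 155.2, 252.7 and 205.9 in the controls. The groups did not overlap, and the difference was -1.34 ± 0.15 (SE; limma adjusted p 1.05e-05). pug, the trifunctional folate enzyme that carries the one-carbon unit onward, held 99.3 ± 22.2 against 282 ± 58.2, a difference of -1.51 ± 0.16 (SE; limma adjusted p 9.13e-06). Ahcy, which hydrolyses S-adenosylhomocysteine, differed by -0.87, with overlapping groups and a call that ended without the control at 50 percent (limma adjusted p 0.0603). The 1 higher member, aay, a phosphoserine phosphatase that completes serine synthesis, held 157 ± 23.0 against 98.6 ± 15.1, a difference of 0.67 ± 0.12 (SE; limma adjusted p 0.000897).

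De novo purine synthesis, which these carbon units feed, had 6 of 9 genes lower, none higher and a median of -0.62. All 9 differences were below 0. Paics held 216.2 and 265.6 normalized reads at 25 percent sucrose, 202.3 and 229.9 at 50 percent and 212.0 and 190.4 at 100 percent, against 464.1, 486.8 and 501.3 in the controls. The groups were far apart relative to their spread, with a difference of -1.15 ± 0.11 (SE; limma adjusted p 1.96e-06). Gart, the trifunctional enzyme of the pathway, held 22.6 ± 2.78 against 64.7 ± 11.3 (-1.47 ± 0.18, SE), and Prat2, the amidotransferase of the first step, 66.4 ± 12.9 against 150 ± 8.10 (-1.19 ± 0.14, SE). Pfas, an amidotransferase of a later step, differed by -0.81, with no overlap, and its call ended without the control at 50 percent (limma adjusted p 0.0881). Over the list, 4 genes were lower without the control at 100 percent and 3 without that at 50 percent. No fit without 1 library called more than 5 as lower. Quantile normalization and DESeq2 each called 4, and edgeR called 5.

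**Figure D4:**
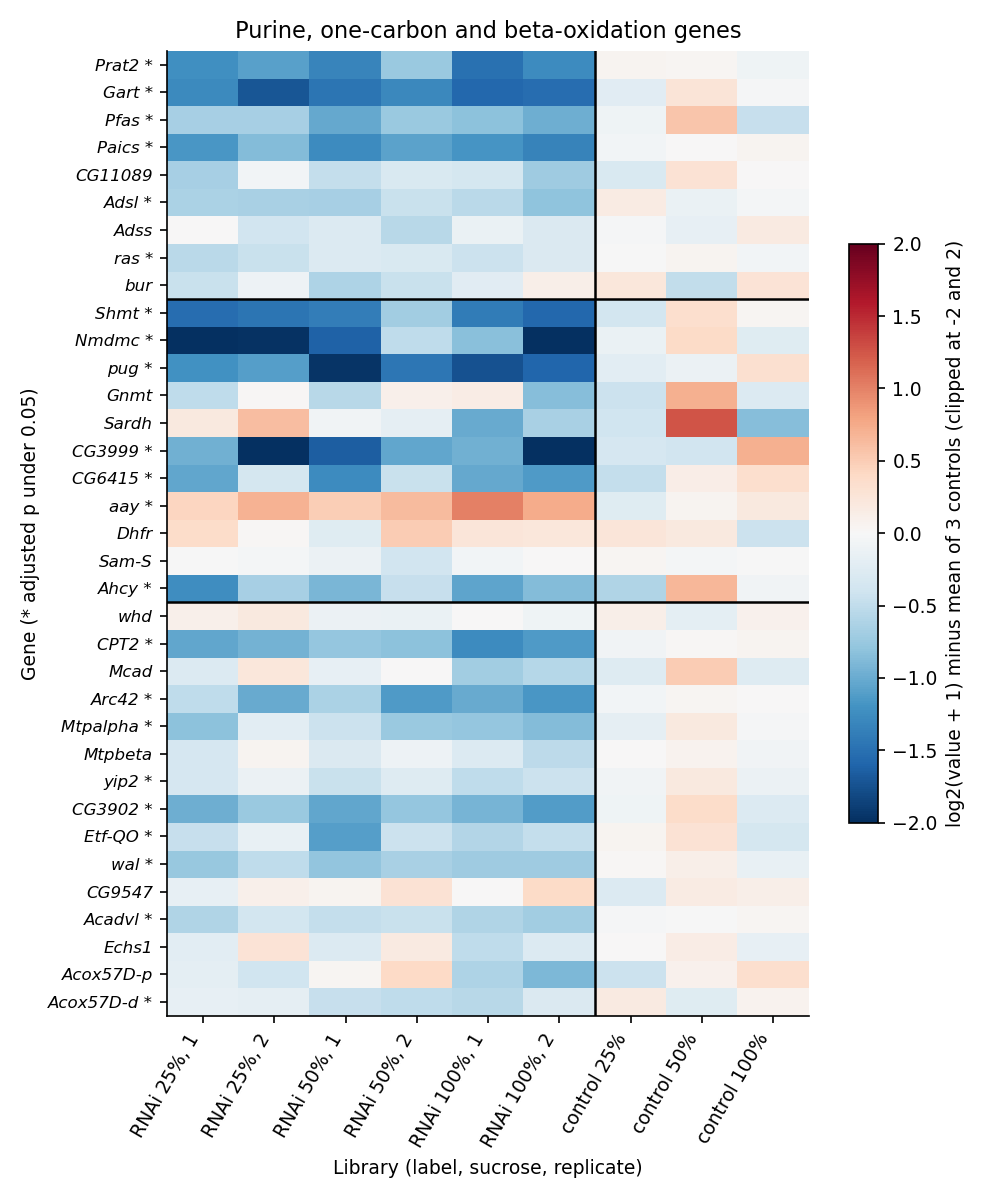
Heat map of log2(value + 1) minus the mean of the 3 controls, for genes of purine synthesis (top block), serine and folate one-carbon metabolism (middle) and fatty acid beta-oxidation (bottom) in rows and libraries in columns, with colours clipped at -2 and 2 and an asterisk at a limma adjusted p under 0.05. Rows with an asterisk are mostly blue in the 6 columns labelled cabut RNAi, and that of aay is red.

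In the mitochondrion, 5 of 14 genes of the tricarboxylic acid cycle were higher and 1 was lower, with a median of 0.28. kdn, citrate synthase, held 312 ± 46.7 normalized reads against 187 ± 28.1, a difference of 0.73 ± 0.12 (SE; limma adjusted p 0.000573). Idh3a, a subunit of isocitrate dehydrogenase, was higher by 0.55 and Scsalpha1, a subunit of succinyl-CoA synthetase, by 0.45. Without the control at 25 percent, 3 genes of the cycle were higher. Mdh1, the cytosolic malate dehydrogenase of the list, differed by -0.40, and its call ended without the control at 50 percent or that at 100 percent (limma adjusted p 0.0631 and 0.0557). Of 66 nuclear genes of the respiratory chain, 8 were higher and none lower, with a median of 0.12. The count was 2 without the control at 100 percent, 3 without that at 25 percent and 4 without that at 50 percent or without any 1 cabut RNAi-labelled library at 50 or 100 percent. ND-18, a subunit of complex I, held 289 ± 31.0 against 189 ± 23.2 and was higher by 0.61 ± 0.12 (SE; limma adjusted p 0.00157). Of the 13 mitochondrially encoded genes, 5 were lower and none higher, whereas after quantile normalization 5 were higher and 4 lower, and without the control at 25 percent 2 were lower. ND3 and ND5 had nearly equal values in each library, 708 ± 143 and 692 ± 140, and may share reads.

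Breakdown of amino acids had 3 of 11 genes higher and 1 lower. The lower one, v (vermilion), the tryptophan dioxygenase that starts ommochrome pigment synthesis, held 71.3 ± 12.6 normalized reads against 143 ± 21.8, a difference of -1.0 ± 0.16 (SE; limma adjusted p 0.000323). Gdh, glutamate dehydrogenase, held 875 ± 116 against 618 ± 85.3 and was higher by 0.50. hgo and Faa, successive enzymes late in tyrosine breakdown, were higher by 0.83 and 0.64, and each call ended without 1 control, hgo without that at 25 percent (limma adjusted p 0.0635) and Faa without that at 50 percent (0.0581). Irp-1B, an iron regulatory protein of the aconitase family, held 167 ± 26.4 against 71.3 ± 18.1, a difference of 1.24 ± 0.13 (SE; limma adjusted p 5.99e-06), while Tsf1, transferrin, differed by -0.53.

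The largest list in one direction was that of the cytosolic ribosomal proteins. Of 84 tested, 76 were lower and none higher, with a median of -0.51, and for 72 the groups did not overlap. Over all genes tested, 7.11 percent were lower, and 8.26 percent were lower without overlap. RpS21 held 1784 and 2096 normalized reads at 25 percent sucrose, 1875 and 2031 at 50 percent and 1664 and 1895 at 100 percent, against 3228, 3368 and 3632 in the controls. Its difference was -0.85 ± 0.09 (SE; limma adjusted p 7.02e-06), and the controls lay above all of the others. RpLP1, a stalk protein of the large subunit, held 4012 ± 232 against 7130 ± 988, and RpS18 2215 ± 124 against 3683 ± 267. Ribosomal proteins made up 20.4 to 22.6 percent of reads in the cabut RNAi-labelled libraries and 26.4 to 28.5 percent in the controls. Of the scalings, quantile normalization changed the list most: it left 19 lower and 2 higher and moved the median to -0.11. With edgeR 77 were lower and with DESeq2 75, each with a median of -0.50. Median-of-ratios scaling gave a median of -0.49. Without the control at 100 percent, 60 were lower. The sum of normalized reads over all genes was 928148 to 1026110 in the cabut RNAi-labelled libraries and 1072010 to 1144655 in the controls.

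Other genes of translation followed in part. Of 41 translation factors, 11 were lower and none higher, with a median of -0.25, and 7 were lower without the control at 50 percent or that at 100 percent. The elongation factor eEF1alpha1 held 8843 ± 680 normalized reads against 13335 ± 1703, a difference of -0.59 ± 0.08 (SE; limma adjusted p 0.000117), and eEF2 1779 ± 157 against 2686 ± 117, a difference of -0.60. After quantile normalization 8 factors were lower, and the call of eEF2 ended (limma adjusted p 0.144). Of 13 ribosome biogenesis genes, 2 were lower. One was Myc, a transcription factor that drives growth, with a difference of -0.70. Of the 9 fits without 1 library, only that without the control at 100 percent did not call it (limma adjusted p 0.149). Myc was not called with DESeq2 (DESeq2 adjusted p 0.0642). The other was nop5, a nucleolar protein, at -0.86, whose call ended without the control at 25 percent (0.114) or at 100 percent (0.0816). Among 18 aminoacyl-tRNA synthetases, 1 was lower, AspRS, at 47.6 ± 5.22 against 99.8 ± 19.1 (-1.04 ± 0.15, SE). Of 71 mitochondrial ribosomal proteins, 1 was higher and 2 were lower, with no higher and 1 lower gene left without the control at 100 percent and 4 lower without that at 25 percent. Of 33 proteasome genes, 2 were higher, which is near the share over all genes (5.4 percent). None was higher without the control at 25 percent, without either cabut RNAi-labelled library at 50 percent or without the second at 100 percent.

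Secreted stress and immune proteins were lower in part. The Turandot peptides are secreted by the fat body under stress, and 3 of 4 tested were lower. TotC held 46.9 and 48.8 normalized reads at 25 percent sucrose, 59.6 and 152.0 at 50 percent and 15.8 and 18.1 at 100 percent, against 1195, 315.9 and 1302. TotA held 34.9 to 336.5 against 1413, 473.2 and 792.2. In both genes the highest cabut RNAi-labelled library and the lowest control were those at 50 percent, and the groups did not overlap. The differences were -4.17 ± 0.50 and -3.41 ± 0.44 (SE; limma adjusted p 2.81e-05 and 5.79e-05). TotX differed by -2.50 and was not called without the control at 25 percent (limma adjusted p 0.0567). The members are close copies, and reads may have been divided between them.

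Of 16 immune recognition genes and serpins, which are protease inhibitors, 5 were lower and none higher, and 3 were lower without the control at 50 percent or that at 100 percent. Spn88Eb held 61.2 ± 45.4 normalized reads against 231 ± 43.5 (-2.18 ± 0.38, SE; limma adjusted p 0.000879), and Spn42Da 39.2 ± 7.32 against 89.8 ± 7.95 (-1.19 ± 0.16, SE). PGRP-SD, a recognition protein for bacterial cell wall fragments, differed by -0.81. Of 9 antimicrobial peptides, 1 was lower, Mtk (metchnikowin). It held 150.3 and 71.3 at 25 percent, 81.1 and 526.0 at 50 percent and 1657 and 60.7 at 100 percent, against 1068, 1605 and 1016 in the controls. One cabut RNAi-labelled library was above every control. The call of Mtk (limma adjusted p 0.0201) ended in 4 of the 9 fits, with adjusted p of 0.14, 0.115 and 0.0808 without the controls at 25, 50 and 100 percent and 0.0508 without the first cabut RNAi-labelled library at 50 percent. Without the first cabut RNAi-labelled library at 100 percent, the one with 1657 reads of Mtk, 3 peptides were lower. The median of the 9 peptides was -0.69 in limma and 0.39 in edgeR. Mtk was called neither with edgeR (edgeR adjusted p 0.0517) nor with DESeq2 (DESeq2 adjusted p 0.286).

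Among 17 odorant-binding proteins, which carry odours and other small molecules in the fluid of sensory hairs, 6 were lower and none higher. Obp99b held 102 ± 35.9 normalized reads against 513 ± 76.0, a difference of -2.40 ± 0.24 (SE; limma adjusted p 4.73e-06). Obp49a, known for its part in the suppression of sweet taste by bitter compounds, held 143 ± 11.6 against 249 ± 61.5 (-0.77 ± 0.11, SE). Obp56d, the most abundant of the named members, differed by -0.44. Of 19 cuticle protein genes, 5 were higher and 2 lower, and the higher count was 1 without the control at 100 percent and 3 without either of the other controls. Cpr65Au held 483 ± 30.9 against 277 ± 39.2 (0.81 ± 0.10, SE).

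The detoxification families had calls in both directions. Of 45 cytochrome P450 genes, 8 were higher and 9 lower, with a median of -0.02 that was 0.003 after quantile normalization, and 4 were lower without the control at 100 percent. Beside those above, Cyp6a8 held 88.3 ± 9.67 normalized reads against 18.6 ± 0.699, a difference of 2.18 ± 0.15 (SE; limma adjusted p 4.43e-08). Of 24 glutathione S-transferases, 2 were higher and 3 lower, and without the control at 50 percent 1 was higher and 1 lower. GstE3 held 102 ± 6.01 against 26.3 ± 6.35, a difference of 1.93 ± 0.15 (SE; limma adjusted p 1.54e-07), and GstS1 36.6 ± 7.59 against 63.3 ± 15.3, a difference of -0.77. Of 11 UDP-glycosyltransferases, 3 were higher and 1 lower (none lower without the control at 100 percent), and Ugt36E1 held 39.0 ± 8.34 against 10.3 ± 2.67, a difference of 1.81 ± 0.20 (SE).

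Eye pigment genes other than w were lower where they were called. Of 16 tested, 1 was higher and 3 were lower. bw (brown), the transporter partner of white for red pteridine precursors, held 15.2 ± 4.49 normalized reads against 44.8 ± 2.11 (-1.55 ± 0.24, SE; limma adjusted p 0.000301). se (sepia), an enzyme of red pigment synthesis, held 58.2 ± 16.1 against 160 ± 10.8 (-1.48 ± 0.19, SE; limma adjusted p 7.12e-05). The third was v, described above. Rh5, the blue-sensitive opsin of inner photoreceptors, held 235 ± 36.8 against 147 ± 21.5, a difference of 0.67 ± 0.13 (SE; limma adjusted p 0.0025). Rh4, an ultraviolet-sensitive opsin, differed by -0.40, and its call ended without the control at 50 percent (0.0551). Of the 20 photoreceptor markers, 3 were higher and 3 lower, with a median of 0.03. The counts were 1 higher and 2 lower without the control at 100 percent, 1 and 1 without that at 25 percent, and 2 and none without that at 50 percent. Without either cabut RNAi-labelled library at 100 percent 1 was higher, and without the first at 50 percent 1 was lower.

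Of 14 circadian genes, 1 was called. Pdf, the neuropeptide of the ventral lateral clock neurons, held 95.9 and 69.5 normalized reads at 25 percent sucrose, 80.1 and 76.0 at 50 percent and 83.2 and 92.1 at 100 percent, against 162.8, 125.1 and 172.3 in the controls. The groups did not overlap and the difference was -0.88 ± 0.13 (SE; limma adjusted p 0.000221), with a call in every fit without 1 library. Of 17 insulin-like and feeding peptides and their partners, 3 were higher and 1 lower, and no more than 2 were higher in any fit without 1 library. One was higher without the control at 50 or 100 percent or without any 1 cabut RNAi-labelled library at 50 or 100 percent, and 1 with edgeR or DESeq2. The peptide genes Ilp3 (0.67; limma adjusted p 0.0469) and sNPF (0.50; 0.0494) each kept the call in 2 of the 9 fits. ImpL2, which binds insulin-like peptides, was higher by 0.92 and Dsk, a satiety peptide, differed by -0.60. The call of ImpL2 ended without the control at 50 percent (limma adjusted p 0.0625) and that of Dsk without the control at 100 percent (0.0667). In the list of FOXO, TOR and starvation genes, 1 of 15 was called, scyl, an inhibitor of TOR signalling, higher by 0.45 with overlapping groups and kept in 4 of the 9 fits (adjusted p 0.264 without the control at 100 percent).

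Among the markers of other cell types, 6 of 10 tested for glia were higher and none lower, with a median of 0.45. Only these 6 had a difference above 0, and Tret1-1, described above, was 1 of them. Without the control at 100 percent 4 were higher and the median was 0.30, and DESeq2 called 4. nrv2, a sodium pump subunit of glia, held 616 ± 39.6 normalized reads against 377 ± 66.7 (0.72 ± 0.10, SE; limma adjusted p 8.32e-05). Mdr65, an efflux pump of the glia that form the blood-brain barrier, held 44.5 ± 7.23 against 19.3 ± 0.781 (1.15 ± 0.17, SE), and Eaat1, the glutamate transporter, 304 ± 31.5 against 201 ± 30.2 (0.60 ± 0.09, SE). The 11 glia markers together made up 0.281 to 0.313 percent of reads against 0.22 to 0.232 percent, and none was at 0. The 12 muscle markers made up 0.188 to 0.29 percent against 0.149 to 0.162 percent, and 4 of 11 tested were higher, with 0 to 5 higher when 1 library was left out and none without the control at 100 percent. The 7 hemocyte markers made up 0.0273 to 0.0319 percent against 0.0227 to 0.0231 percent, with 1 of 6 higher, the clotting protein gene Hml, which was called in 3 of the 9 fits and not without the control at 25 percent (limma adjusted p 0.25). The 13 neuron markers made up 0.0589 to 0.0709 percent against 0.0536 to 0.0584 percent, with 2 of 10 higher and 2 lower and a median of -0.06. Without the control at 100 percent 1 was higher and none lower, and none was lower without that at 25 percent.

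Markers of the fat body and yolk, a tissue in which Turandot peptides, serpins and Hex-C are known to be abundant, had 1 of 9 higher and 4 lower, with 2 lower without the control at 100 percent and 1 without that at 25 percent. The storage protein Lsp2 held 65.4 to 428.3 normalized reads against 54.6, 103 and 80.6, with the lowest cabut RNAi-labelled library inside the range of the controls. The yolk protein gene Yp3 held 13770 ± 2695 against 20997 ± 3748, a difference of -0.62 ± 0.13 (SE), whose call ended without the control at 25 percent (limma adjusted p 0.0837). Of hll, a fatty acid ligase gene, there were 3 reads over the cabut RNAi-labelled libraries and 44 over the controls, a ratio of 45.8 of controls to the others (95 percent counting interval 14.7 to 230). The 12 markers made up 3.71 to 6.12 percent of reads against 5.03 to 6.67 percent, and Fbp1 was at 0 in all 9 libraries. The part of these markers in the differences of the other gene lists was not tested.

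Whether the difference between labels depended on sucrose was tested as an interaction over all 12 libraries, in which 12 genes had a higher and 2 a lower difference with sucrose than without. These were 0.183 and 0.0305 percent of the genes tested, 0.214 percent in all, and 8.15 percent had an unadjusted p under 0.05. With 1 control library at 0 percent, this test rests on that library. Pepck1 held 1608 and 1511 normalized reads in the cabut RNAi-labelled libraries at 0 percent and 1853 in the control. Its difference was -0.25 without sucrose and 1.52, 1.82 and 1.23 at 25, 50 and 100 percent, and the interaction was 1.77 ± 0.22 (SE; limma adjusted p 0.000705). AcCoAS held 367.0 and 395.4 against 507.1 at 0 percent, and its interaction was 1.62 ± 0.20 (SE; limma adjusted p 0.000705). For both genes the labels did not overlap on sucrose, and at 0 percent the single control lay above both cabut RNAi-labelled libraries.

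Cyp4e3 was higher at every concentration, by 2.93 at 0 percent and by 5.16 to 5.26 with sucrose, with an interaction of 2.29 ± 0.21 (SE; limma adjusted p 1.93e-05). CG10383 differed by 0.19 on sucrose and was at 51.5 and 56.2 normalized reads against 199.8 at 0 percent, an interaction of 2.06 ± 0.28 (SE; limma adjusted p 0.00121). These calls, with those of Pepck1 and AcCoAS, were kept in the 11 fits without 1 library that could be made. Irp-1B (1.56 ± 0.25, SE) was not called without the second cabut RNAi-labelled library at 0 percent (limma adjusted p 0.0708). Cyp6a8 had the only named interaction below 0, -1.54 ± 0.28 (SE), and was not called without either cabut RNAi-labelled library at 0 percent (limma adjusted p 0.191 and 0.11). Pepck2 had an interaction of 2.68 ± 0.68 (SE) that was not called (limma adjusted p 0.215).

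**Figure D5:**
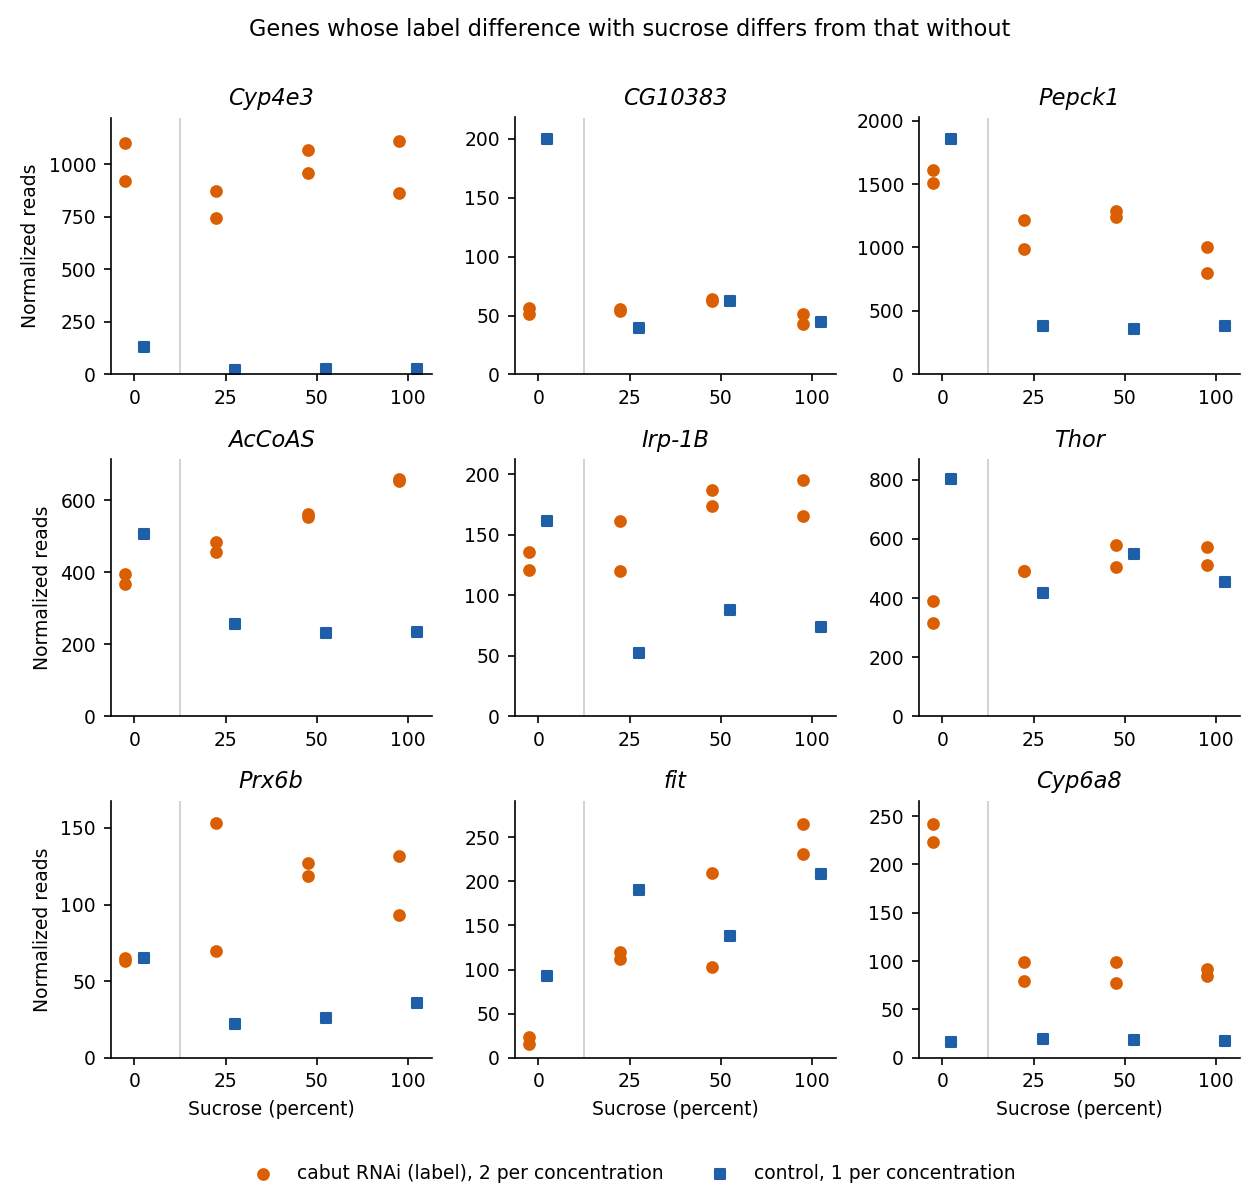
Normalized reads per library (y axis) against sucrose in percent (x axis) for 9 genes whose difference between labels with sucrose was called as unlike that without. They are Cyp4e3, CG10383, Pepck1, AcCoAS, Irp-1B, Thor, Prx6b, fit and Cyp6a8. Thor is of the FOXO, TOR and starvation list, in which 1 gene had this call, and Akr1B, called as well, is not plotted. Circles are cabut RNAi-labelled libraries and squares are controls. For Pepck1, AcCoAS and Irp-1B the control square lies above the circles at 0 percent and below them at 25, 50 and 100 percent.

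A change of the difference per doubling of concentration, fitted over the 9 libraries, was called for 1 of 6552 genes, 0.0153 percent, and 662 had an unadjusted p under 0.05 (10.1 percent). The gene was CG34227, which held 1501 to 1753 normalized reads in the cabut RNAi-labelled libraries and 345.7, 521.5 and 1193 in the controls at 25, 50 and 100 percent. The difference between labels became smaller by 0.85 ± 0.11 (SE) per doubling (log2 slope -0.85; limma adjusted p 0.0171), as the controls came closer to the others. The call ended in 5 of the 9 fits, with limma adjusted p of 0.764 without the control at 100 percent, 0.0583 without that at 25 percent, 0.0506 without the first cabut RNAi-labelled library at 50 percent, and 0.148 and 0.106 without the first and second at 100 percent. For cbt the slope was 0.47 ± 0.14 (SE; limma adjusted p 0.375).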

How the data were processed

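RNA from fly heads was fragmented before poly(A) selection, per the labels' protocols, so reads come mostly from 3′ ends. The submitters' processing notes list Bowtie, TopHat and the genome build dm3, with no version. Which program counted reads, whether it used strand and how libraries were scaled is not given in the sources used here, so reads of overlapping or antisense genes cannot be told apart. The values are a normalized signal per transcript row, as deposited by the authors. In each of the 12 libraries 100 percent of values were whole multiples of 1 step (tolerance 0.01), and the reads behind them were recovered by division.

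The table had 21081 transcript rows. They were joined by gene number (14010 numbers, of which 13536 matched a RefSeq symbol), and the row with the highest mean over the 12 libraries was kept for each of 13759 genes, of which 1211 had 2 or more distinct rows. The 101 genes with at least 100 reads whose reads equalled those of another gene in every library were not named. The 2 rows without a gene number held 0.000172 percent of reads and were left out. Coordinates are in dm3 and count from 1.

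Values were tested as log2(value + 1) with limma 3.58.1 (intensity trend) in R 4.3.3, for the 6552 genes whose mean over the 12 libraries reached 10, and p-values were adjusted by Benjamini-Hochberg over all of them. The difference between labels was fitted over the 9 libraries with concentration as a factor, which left 5 residual degrees of freedom. The interaction with sucrose used the 12 libraries, and the change per doubling of concentration used the 9. Each concentration had 1 control library, which is taken to vary like the other libraries. The spread of replicates was larger than counting noise (chi-square 2.73 to 5.75 times its degrees of freedom). That cannot show whether replicate libraries came from separate samples. Each library was counted as 1 sample. The fits were also run on simulated reads, drawn independently for each library. That run cannot show the effect of libraries that are not independent.

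The comparison, the 43 gene lists and the naming rule were chosen with earlier results of these data known. Some symbols of the lists were corrected or dropped once the table was at hand and before any test was run. Named were cbt, w, the 12 largest calls in each direction with a mean of at least 50, the 6 largest in each direction of the other tests, and per list up to 4 called members by p, or the member with the smallest p if none was called. Genes and lists in the plots were picked after their values were seen. Alternatives were pseudocounts of 0.5 and 5, no filter, a mean of 50 as the minimum, quantile and median-of-ratios scaling, robust limma, limma without trend, DESeq2 1.42.0 and edgeR 4.0.16 run on recovered reads, summed transcript rows, a linear dose, no concentration term, all 12 libraries, the replicate number as a block, and leaving out each library. Replicate numbers were taken not to pair the samples, since the correlations of deviations between same-numbered libraries were 0.143, 0.0383 and -0.112. No sequence is shown. Some genes that the rule chose stand in the counts of their lists alone, and 1 of them was left out of the check for libraries that stand apart.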

Additional observations from a re-analysis of the deposited data

Results flagged for a closer look

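Among the 6 cabut RNAi-labelled libraries, 1 library stood apart from the other 5 for 9 of the 146 named genes checked, by the gap to its nearest neighbour over the range (Dixon's test). Chance alone flags about 1 in 20 such groups. Below the others lay CG12896 in the first library at 25 percent sucrose, at 40.4 normalized reads. Above the others in the second library at 25 percent lay Sodh2 at 127.6 and v at 94.8. Above the others in the second library at 50 percent lay TotC at 152.0, TotA at 336.5, Shmt at 123.4 and Rel, the NF-kappaB factor of the immune response, at 123.4. Above the others in the first library at 100 percent lay Mtk at 1657 and Tsf1 at 1021.

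The difference between labels with sucrose was unlike that without for 9 named genes. In log2 units the interaction was 2.29 for Cyp4e3, 2.08 for fit, 2.06 for CG10383, 2.03 for Prx6b, 1.77 for Pepck1, 1.62 for AcCoAS, 1.56 for Irp-1B, 0.98 for Akr1B and -1.54 for Cyp6a8. The calls of fit, Prx6b and Akr1B had limma adjusted p of 0.044, 0.044 and 0.0442 and ended in 5, 8 and 8 of the 11 fits without 1 library. Without the second cabut RNAi-labelled library at 0 percent these p-values were 0.294, 0.228 and 0.205. The difference of CG34227 became smaller with concentration (-0.85 per doubling).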

How the results depend on the processing

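Of 354 higher and 466 lower genes, DESeq2 called 199 and 348, limma without the trend 189 and 244, and limma with no filter on low values 205 and 304; edgeR called 298 and 453, and quantile normalization gave 365 and 373. Leaving out 1 library gave 210 to 329 higher and 278 to 495 lower genes, with the lowest counts without the control at 100 percent, and 228 higher without that at 50 percent. For the interaction with sucrose, 12 higher and 2 lower became 1 and 0 without the trend and 2 and 0 with no filter. The lower count was 1 with DESeq2, edgeR, a minimum mean of 50, a pseudocount of 5 or quantile normalization. Leaving out 1 library gave 5 to 19 higher (5 and 7 without the second and first cabut RNAi-labelled library at 0 percent, 7 without the second at 100 percent, 19 without the first at 25 percent) and 0 to 2 lower. No fit of the interaction could be made without the control at 0 percent. The change per doubling, 0 higher and 1 lower, became 4 lower with edgeR and 0 lower without the trend, with no filter or with a minimum mean of 50. Leaving out 1 library gave 0 to 3 higher and 0 to 10 lower (10 and 3 without the control at 25 percent, 8 lower without that at 50 percent). The cause was not tested. The number of same-numbered libraries as a replicate block gave 348 higher and 477 lower genes, 12 and 1 for the interaction and 0 and 1 per doubling. The pairing is not shown by the labels.

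Of the results for single named genes under the alternatives, 3309 kept their side of the threshold, 382 passed it no longer and 3 passed it newly. No called one changed direction, whereas fit, which was not called on sucrose (-0.12), was at 0.17 without the control at 25 percent. Of all 820 calls of the difference between labels, 15 had the other sign after quantile normalization and none under the other settings. Of 143 named genes called for the difference between labels, 86 kept the call in every fit without 1 library. The others lost it mostly without a control, 36 without that at 100 percent, 36 without that at 50 percent and 27 without that at 25 percent. Depth limits the genes with few reads, since 1 read was worth 2.24 normalized reads in the control at 100 percent and 0.499 in the deepest library.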

Other observations

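The heat shock and iron lists are given here beside the 5.4 percent higher and 7.11 percent lower over all genes tested. Of 13 heat shock and chaperone genes, 1 was lower, Hsp83, the cytosolic chaperone of the 90-kDa class, at 375 ± 80.8 normalized reads against 539 ± 71.5 (-0.54 ± 0.14, SE; limma adjusted p 0.0162). Its groups overlapped, and the call ended in 4 of the 9 fits without 1 library, with adjusted p of 0.101 without the control at 25 percent and 0.104 without that at 100 percent. The list's median was -0.07, and 0.07 after quantile normalization. Of 8 iron genes, 1 was higher and 1 lower, Irp-1B and Tsf1. No row of the table matched roX1 or roX2, the RNAs of male dosage compensation.

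Calls were spread over the chromosome arms, with 15.0 percent of tested genes called on 2L, 15.6 on 2R, 11.2 on 3L, 11.4 on 3R and 9.50 on X, against 12.5 percent over all genes.

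The genes whose levels were most like those of cbt over the 12 libraries, among 2295 genes ranked by Pearson's r on log2(value + 1), were Serinc (0.923), CG10543 (0.895), CG6067 (0.88), RhoGDI (0.88) and Vha16-1 (0.874). The 12 points share the labels and the sucrose concentrations, and the values are a description of these libraries.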
